A study of Caenorhabditis elegans with 2 samples.

Results

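Peaks of GFP-tagged EGL-44 at nuclear tRNA genes are described here. EGL-44 is the TEA domain (TEAD) transcription factor of Caenorhabditis elegans. A peak was counted as a tRNA gene peak when its summit lay within 300 bp of the annotated start of a nuclear tRNA gene. This rule took 247 of the 1537 nuclear peaks in the pooled list (16.1%) and 261 of the 612 nuclear tRNA genes, because some peaks lay beside a pair of genes and some genes beside a pair of peaks. The other 1290 nuclear peaks and the 351 tRNA genes with no peak are the comparisons.

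The data are 2 biological replicates of whole young adult worms (66.5 h), synchronised as starved L1 larvae. Both came from strain RW12173. Its allele st12173, made by CRISPR, places GFP at egl-44 together with an unc-119(+) marker between loxP sites, and the background is unc-119(tm4063) on III. The fusion protein therefore comes from egl-44 itself. Chromatin was sheared by sonication and recovered with an anti-GFP antibody. There is no untagged, untreated or other-stage group, cells of every type were pooled, and the control library was not analysed here. Read depth is unknown. No test between conditions is possible, and intervals below cover the counting of genes or peaks only, since genes are not replicates. A label check against marker genes does not apply to whole-worm chromatin.

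Transfer RNA genes are read by RNA polymerase III. Their promoter lies inside the gene: the A box near the 5′ end and the B box in the part that becomes the T loop are bound by TFIIIC, which brings TFIIIB to the DNA just upstream of the start. C. elegans carries many tRNA genes on its X chromosome, often as identical copies at scattered loci. Each copy belongs to an isotype, the amino acid that its tRNA carries.

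The tRNA gene sequences show both what the family members share and where they differ. The 6 genes printed first stand for the families with the highest and the lowest share of copies at a peak, among 9 families of 10 or more identical copies from which sequences were chosen. Capitals mark the core of the B box (the letters GTTCNANNC, where N is any base). All sequences are from the RefSeq genome, build WBcel235, read 5′ to 3′ on the strand of the gene. At the 3 high-share families, a lysine, an alanine and a threonine tRNA, 11 of 14, 11 of 15 and 10 of 15 copies had a peak.

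Lysine, C33G3.t2 (chrX:14063946-14064018, minus strand): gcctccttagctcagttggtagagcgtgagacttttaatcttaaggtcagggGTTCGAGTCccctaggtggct
Alanine, F15G9.t2 (chrX:9743747-9743818, plus strand): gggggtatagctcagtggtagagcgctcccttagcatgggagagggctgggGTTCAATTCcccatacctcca
Threonine, Y39A1A.t1 (chrIII:10624742-10624813, minus strand): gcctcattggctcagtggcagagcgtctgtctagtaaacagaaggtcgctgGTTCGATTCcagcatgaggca

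At the 3 low-share families, a glutamine, a phenylalanine and a serine tRNA, 4 of 15, 2 of 10 and 2 of 11 copies had a peak. The B box core is present in these genes as well.

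Glutamine, H08J11.t3 (chrX:9091557-9091628, minus strand): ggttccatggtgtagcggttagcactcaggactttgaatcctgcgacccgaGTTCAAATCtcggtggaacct
Phenylalanine, T28B4.t1 (chrX:6593596-6593668, plus strand): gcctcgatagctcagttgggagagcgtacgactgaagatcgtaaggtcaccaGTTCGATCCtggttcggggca
Serine, F42A10.t1 (chrIII:6158778-6158859, plus strand): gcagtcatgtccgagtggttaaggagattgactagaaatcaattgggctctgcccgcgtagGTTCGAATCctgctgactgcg

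Peaks were common at tRNA genes in every list. In the pooled list 261 of 612 tRNA genes had a peak (42.6%, 95% Wilson interval 38.8 to 46.6), and the same rule found a peak at 2.12% of all other nuclear genes. Among other genes with no tRNA gene start within 600 bp that share was 1.72%. Replicate 1's own list held 144 tRNA genes (23.5%) beside 1.18% of other genes, and replicate 2's held 126 (20.6%) beside 0.903%. The conservative list held 257 (42.0%) beside 1.99%. In the full ranked list, which has no reproducibility limit, 531 tRNA genes (86.8%) had a region of any rank, beside 34.3% of other genes. The rule uses presence of a peak, so these shares describe the members.

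The genes with no peak were seldom empty. Of the 351, 270 had a ranked region within 300 bp and 81 had none. The strongest such region had a median signal of 48.0 (quartiles 34.5 and 58.7), and 3.87% of the 78252 nuclear regions left below the reproducibility limit were above that median. The median of all those regions was 20.8, and 245 of the 270 genes lay above it. A gene's value is its strongest region, while the other side holds every single region, so both comparisons lean towards the genes. The pooled list is limited by reproducibility and not by signal, and the signals overlapped. The strongest regions at genes with no peak reached 81.1, while the lowest peak of signal 30 or more had 57.0. Regions below the limit reached 134.5 over all nuclear regions. Of the genes with no peak, 25 were in the conservative list, 9 in replicate 1's list and 4 in replicate 2's.

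The summits sat on the tRNA genes themselves. The summit lay at a median of 18 bp into the gene (quartiles -1 and 44 bp), and 165 of 247 (66.8%) lay between the gene's first and last base. A further 63 (25.5%) lay upstream and 19 (7.69%) downstream. Within 50 bp of the start there were 189 summits, at 51 to 100 bp 42, at 101 to 200 bp 12 and at 201 to 300 bp 4. At 300 to 1000 bp there were again 4 summits of any peak, so the limit of 300 bp falls in a sparse stretch. On X the median was 25 bp and on autosomes 13 bp. At genes with no peak the strongest ranked region had a median offset of 17 bp, with 130 of 270 inside the gene (48.1%).

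**Figure D1:**
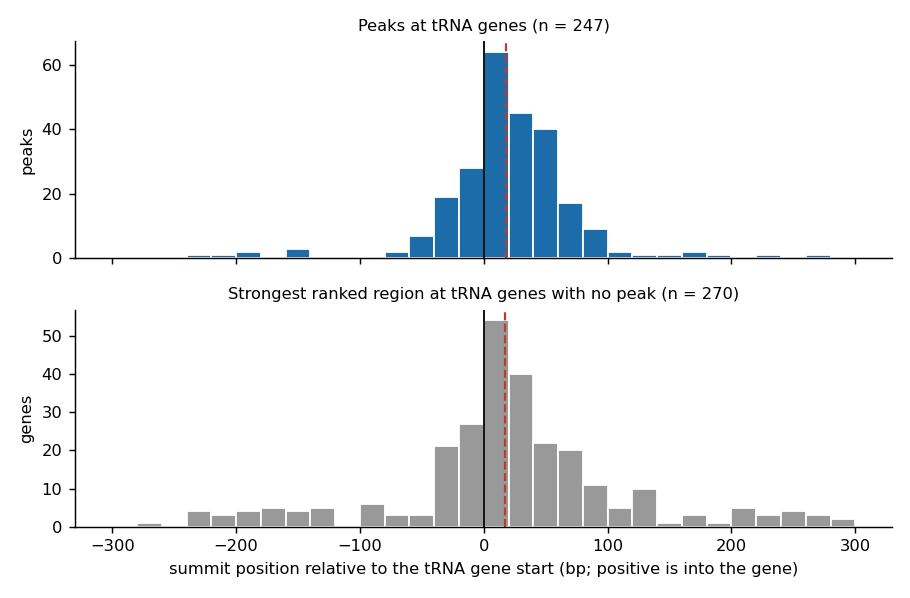
Position of the summit relative to a tRNA gene start, in bp, with positive values into the gene. The start is the nearest one for each peak (upper panel) and each gene's own for a ranked region (lower panel). Upper panel, the 247 peaks; lower panel, the strongest ranked region at the 270 tRNA genes with no peak that had one; the black line is the gene start and the dashed red line the median (18 and 17 bp). Both distributions are densest just inside the gene, and the lower one has more summits far from it.

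A set of 13 peaks had signals below 30, from 3.09 to 26.4, while the next peak had 57.0. All 13 overlapped a stronger peak at a tRNA gene, and no tRNA gene had only such a peak. They are 5.26% of the tRNA gene peaks; of the other nuclear peaks 74 (5.74%) had signals below 30, and 73 of these overlapped a stronger peak. Their summits lay a median of 169 bp from the nearest start, against 26 bp for the other 234. The weakest were at ZK783.t1 (3.09), K07C10.t1 (3.37) and the pair F42A10.t1 and F42A10.t2 (3.56). Those farthest inside the limit, at F25F6.t2 (261 bp, 8.53), ZC449.t1 (231 bp, 5.29) and C18A11.t1 (225 bp, 16.1), belong to the same set. The nearest summits outside it were at F58D5.t1 (387 bp, 75.5), Y22D7AL.t3 (596 bp, 64.2) and T19C4.t1 (847 bp, 74.1).

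The B box word was nearly universal at these peaks. It was present, on either strand, in the 310 bases around the summit at 234 of 247 tRNA gene peaks (94.7%). It was also at 195 of 1290 other peaks (15.1%) and at 9677 of 78252 regions below the reproducibility limit (12.4%). The first share follows from choosing peaks at tRNA genes. Among the tRNA genes, 254 of 587 with the word in the gene had a peak (43.3%, 39.3 to 47.3), and 7 of 25 without it did (28.0%, 14.3 to 47.6). These intervals overlap. The core word of TEAD binding sites, CATTCC or its reverse complement, lay within 100 bp of 20 summits at tRNA genes (8.10%, 5.30 to 12.2). It lay near 112 of the other peaks (8.68%, 7.27 to 10.3). Among regions below the limit and away from tRNA genes the share was 10.6% (10.4 to 10.8). For regions below the limit within 300 bp of a tRNA gene start the share was 9.45% (6.66 to 13.2). The interval of the tRNA gene peaks overlaps each of the others. That of the other peaks lies below that of regions under the limit and away from tRNA genes. A word is a description of the sequence and not a site.

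The median deposited signal was 92.7 (quartiles 74.0 and 112.2) at the 247 peaks and 79.4 (67.1 and 101.1) at the 1290 others. Leaving out signals below 30 gave 94.4 and 81.0. Within the lists of the single replicates the difference of medians was 2.81 in replicate 1 and 1.79 in replicate 2, and under the stricter reproducibility limit of 0.001 it was -3.75. The direction of this difference thus depended on the list. Of the 100 strongest nuclear peaks 12 were at tRNA genes (12%), and of the 200 strongest 38 (19%), beside 16.1% of all nuclear peaks. The best rank was 12.

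The strongest tRNA gene peak covered a pair of alanine genes in an intron of him-4, at chrX:9743547-9743688 with signal 262.5. Its signal was 136.3 in replicate 1 and 122.2 in replicate 2, the highest of any tRNA gene peak in each. F15G9.t1 and F15G9.t2 face the same way with starts 158 bp apart, and the summit lay 30 bp into F15G9.t1. The locus is printed because it shows 2 alanine genes of different sequence under 1 summit. The genes are in capitals and the flanks in lower case.

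F15G9.t1 and F15G9.t2 (chrX:9743559-9743838, plus strand): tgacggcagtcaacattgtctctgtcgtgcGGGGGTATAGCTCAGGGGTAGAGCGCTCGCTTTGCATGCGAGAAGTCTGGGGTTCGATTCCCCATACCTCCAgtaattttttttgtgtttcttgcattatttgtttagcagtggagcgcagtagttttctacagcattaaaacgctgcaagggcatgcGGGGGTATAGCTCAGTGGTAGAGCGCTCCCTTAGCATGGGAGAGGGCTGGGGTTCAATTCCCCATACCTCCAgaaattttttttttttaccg

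The next peaks by signal were also on X. The peak at chrX:3036047-3036137 (228.9; replicate 1, 133.1; replicate 2, 89.5) lay between the starts of the glycine gene M02F4.t1 and the glutamate gene M02F4.t2, which face away from each other. The alanine gene T18D3.t1 had 222.9, with 122.5 in replicate 1 and 93.3 in replicate 2. The tyrosine gene R11.t1 had 208.7, the lysine gene C33G3.t2 196.8 and the leucine gene C04A11.t1 187.2. On autosomes the highest signal, 174.3, was on V, over the lysine gene T23F1.t1 and the proline gene T23F1.t2, which face each other. Others among the 20 strongest were the serine gene E03E2.t1 (173.3) in cat-1, the tyrosine gene C02B4.t2 (164.0), the glutamate gene C28G1.t1 (163.9) and the phenylalanine gene T28B4.t1 (161.4). The aspartate gene Y54G2A.t3 (158.2), whose sequence has no identical copy, was the strongest on IV. The remaining 8 were F41D9.t3 (Asn, 157.8), T07H6.t2 (Ala, 155.6), T03E6.t1 (Gln, 155.4), R04D3.t2 (Val, 150.4), R01H5.t1 (Thr, 149.6), W03G11.t1 (Lys, 147.7), F17H10.t1 (Gly, 146.3) and C14B9.t2 (Leu, 144.6), the last being the strongest on III. On I the strongest was the methionine gene T28F2.t1 (141.5) and on II the isoleucine gene T21B4.t1 (141.3). Of these 20 peaks, 16 were on X.

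Of the 247 peaks, 116 lay on X (47.0%), a chromosome that carries 45.1% of tRNA genes and 16.05% of the other 1290 peaks. Put another way, 124 of 276 X tRNA genes had a peak (44.9%), against 137 of 336 on autosomes (40.8%). The difference of 4.15 percentage points had a 95% Newcombe interval from -3.69 to 11.96. In replicate 1's own list the shares were 28.3% and 19.6% (difference 8.62, 1.85 to 15.4) and in replicate 2's 24.6% and 17.3% (7.38, 0.925 to 13.9). The X share was therefore the higher one in each list, with an interval that includes 0 in the pooled list only of these 3. By autosome the shares were 48.5% on I, 49.1% on II, 40.6% on III, 38.0% on IV and 30.8% on V, where 24 of 78 genes had a peak (21.6 to 41.7). Median signal was 93.7 on X and 91.1 on autosomes. Without the peaks of signal below 30 it was 99.3 on X (quartiles 76.5 and 119.6, n = 111) and 93.3 on autosomes (74.7 and 110.7, n = 123). The Wilson intervals of V and of II, the ends of this order, overlap.

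**Figure D2:**
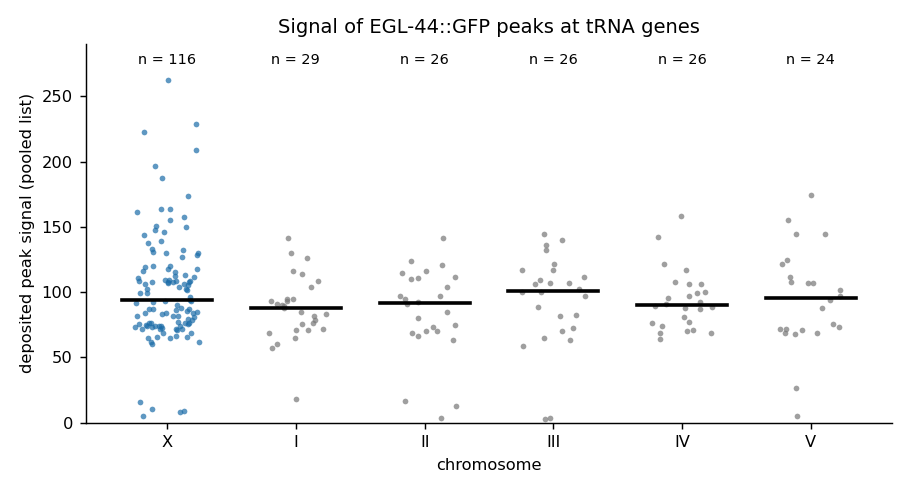
Deposited signal in the pooled list of each tRNA gene peak (points), by chromosome, with the median as a black bar. X (blue) reaches 262.5 and the autosomes (grey) 174.3, while the medians lie between 87.5 on I and 101.1 on III; points near 0 are the peaks of signal below 30.

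The replicates agreed on part of the set. Among the 234 peaks of signal 30 or more, 68 were in both replicates' own lists (29.1%), 52 only in replicate 1's, 40 only in replicate 2's and 74 in neither (31.6%). For the 1216 other nuclear peaks of signal 30 or more, 22.2% were in both and 43.3% in neither. Nearly all were ranked in each replicate at some level: 228 of 234 in both. Over those 228 peaks the median signal was 52.4 in replicate 1 and 43.0 in replicate 2, and replicate 1's value was the higher in 165. Among the other nuclear peaks of signal 30 or more, it was the higher in 971 of the 1190 ranked in both, so this is no trait of tRNA gene peaks. Between the 2 signals of the 228 tRNA gene peaks Spearman's rho was 0.388, and Pearson's r over the log2 signals was 0.408. Over the 1190 other peaks both were higher, at 0.415 and 0.549. These correlations are across peaks that passed the same pooled limit and are given as a description. For the tRNA gene peaks on X rho was 0.518 (n = 109), and for those on autosomes 0.254 (n = 119). In each such pair the scale of the 2 libraries is not stated, so the values are side by side and not subtracted.

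**Figure D3:**
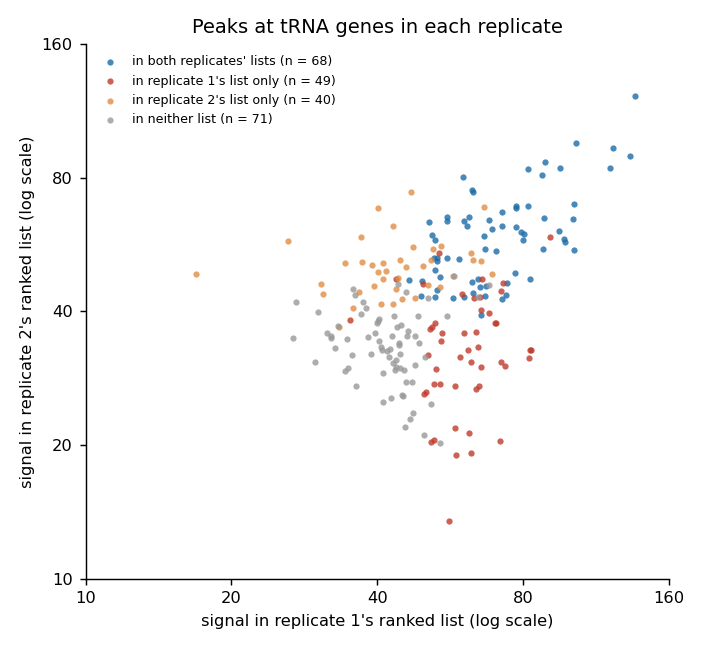
Signal of the 228 tRNA gene peaks of signal 30 or more that were ranked in both replicates, replicate 2 against replicate 1, both axes on a log scale. Colours give the replicates' own lists that hold the peak; the peaks in both lists (68) fill the upper right, and the highest point, at 136.3 and 122.2, is the peak at F15G9.t1 and F15G9.t2.

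Isotype shares ran from 64.7% for alanine to 20% for methionine among isotypes of 10 or more genes. Alanine had a peak at 22 of 34 genes (47.9 to 78.5), lysine at 27 of 46 (58.7%, 44.3 to 71.7), glutamate at 23 of 41 (56.1%), threonine at 19 of 34 (55.9%) and glycine at 28 of 55 (50.9%). At the low end were methionine with 4 of 20 (8.07 to 41.6), valine with 7 of 31 (22.6%, 11.4 to 39.8), tryptophan with 3 of 12 (25%) and histidine with 5 of 20 (25%). The intervals of neighbours in this order overlap, but those of alanine and valine, or alanine and methionine, do not. Alanine also led in replicate 1's list (47.1%) and in replicate 2's (35.3%). Each of the 21 annotated isotypes had at least 1 peak.

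**Figure D4:**
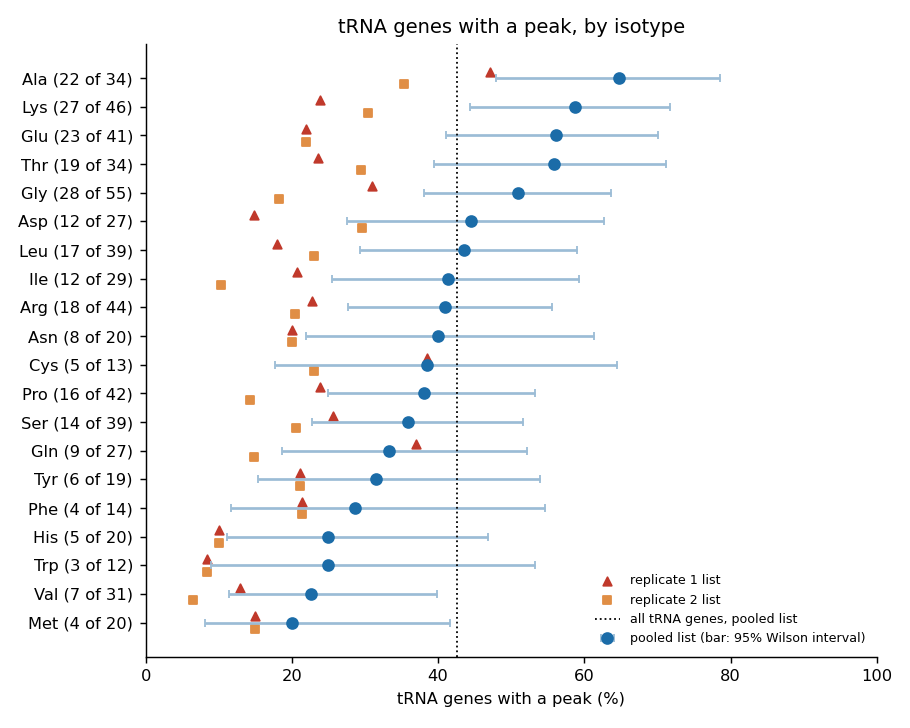
Share of tRNA genes with a peak, for each isotype of 10 or more genes; circles with 95% Wilson bars are the pooled list, triangles replicate 1's list and squares replicate 2's, and the dotted line is the share over all tRNA genes (42.6%). Alanine lies highest (64.7%) and methionine lowest (20%), and most bars cross the dotted line.

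The strongest genes by isotype not yet named were F57F5.t1 (Ile, 144.2), C37A2.t1 (Cys, 130.1), in an intron of cye-1, F29C4.t1 (Arg, 121.5), W09G10.t1 (His, 116.1) and sup-7 (Trp, 109.4). The single selenocysteine gene, K11H12.t1, whose tRNA reads a stop codon, had a signal of 76.5. In replicate 1 its signal was 30.6 and in replicate 2 46.1, and of the 2 replicates' own lists only replicate 2's held it. Its sequence is printed as the only gene of its kind.

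Selenocysteine, K11H12.t1 (chrIV:658181-658266, plus strand, all of the gene): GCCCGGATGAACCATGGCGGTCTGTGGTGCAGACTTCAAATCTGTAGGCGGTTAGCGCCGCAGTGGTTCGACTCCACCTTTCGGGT

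Identical copies did not always share an outcome. The 612 genes have 200 distinct sequences, and 57 sequences occur more than once. In 45 of these families some copies had a peak and others did not, in 4 all did and in 8 none did. All 32 families of 5 or more copies were of the mixed kind, with 16.7% to 78.6% of copies at a peak. Over all tRNA genes the share was 42.6%, and at that share most groups of 5 or more genes would be mixed. The count of mixed families is thus a description, and the part of gene sequence was not tested. The largest were a glycine family (20 of 29 copies), a lysine (16 of 25), the proline family that includes T23F1.t2 (9 of 24), an aspartate (9 of 21) and a glutamate family (10 of 20). Genes of the same sequence thus differed in whether the list held them. Over 22 mixed families with 3 or more peaks, the highest signal was a median of 2.18 times the lowest.

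The array of tyrosine genes at R11 shows this within 1506 bp of X; it was singled out after its values were seen. R11.t1 to R11.t4 lie on the minus strand and have the same 84-base gene sequence. R11.t1 had a signal of 208.7 and was in both replicates' lists. In the pooled ranked list R11.t2 had 9.03, R11.t3 21.8 and R11.t4 no region within 300 bp. The 60 bases upstream, in lower case, are close to one another in R11.t2, R11.t3 and R11.t4, and those of R11.t1 differ. The genes are in capitals.

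R11.t1 (chrX:16209769-16209912): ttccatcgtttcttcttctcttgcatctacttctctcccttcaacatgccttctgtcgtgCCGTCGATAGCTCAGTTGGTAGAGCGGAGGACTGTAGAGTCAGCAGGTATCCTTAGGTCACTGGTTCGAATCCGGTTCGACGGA
R11.t2 (chrX:16209228-16209371): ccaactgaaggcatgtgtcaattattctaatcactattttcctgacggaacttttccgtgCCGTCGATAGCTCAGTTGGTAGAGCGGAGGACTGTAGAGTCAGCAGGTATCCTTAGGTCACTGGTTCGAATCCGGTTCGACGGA
R11.t3 (chrX:16208825-16208968): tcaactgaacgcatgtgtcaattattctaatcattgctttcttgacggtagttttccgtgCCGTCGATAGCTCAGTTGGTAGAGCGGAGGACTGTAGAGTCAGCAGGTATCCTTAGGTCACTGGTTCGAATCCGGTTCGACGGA
R11.t4 (chrX:16208263-16208406): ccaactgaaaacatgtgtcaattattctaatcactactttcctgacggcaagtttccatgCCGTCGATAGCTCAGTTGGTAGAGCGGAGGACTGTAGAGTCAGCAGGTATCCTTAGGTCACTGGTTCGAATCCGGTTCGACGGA

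The alanine family of 15 copies gives a similar contrast in 2 copies on different chromosomes, picked for their signals. The gene T18D3.t1 had the highest signal of those copies with a peak of their own (222.9). The copy C52E12.t3, in an intron of unc-104 on II, had no peak and a ranked signal of 48.2, the lowest of the copies with none that were ranked. Its value was 37.2 in replicate 1 and 17.9 in replicate 2. Other copies of the family on II had a peak, namely ZK622.t1 (95.1), F49C5.t2 (70.1) and M03A1.t1 (66.7). The contrast is thus between copies and not between chromosomes. T18D3.t1 and C52E12.t3 are printed with the 100 bases upstream, whose GC content is 44% in each.

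T18D3.t1 (chrX:12458176-12458347, minus strand): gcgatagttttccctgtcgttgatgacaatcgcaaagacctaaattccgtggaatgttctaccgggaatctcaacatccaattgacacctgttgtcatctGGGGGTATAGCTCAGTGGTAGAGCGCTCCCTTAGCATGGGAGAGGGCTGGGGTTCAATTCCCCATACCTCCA
C52E12.t3 (chrII:7002993-7003164, minus strand): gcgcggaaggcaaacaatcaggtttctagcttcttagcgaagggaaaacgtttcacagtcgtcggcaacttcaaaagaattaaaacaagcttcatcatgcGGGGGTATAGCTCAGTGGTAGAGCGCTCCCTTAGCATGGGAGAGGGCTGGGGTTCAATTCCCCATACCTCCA

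Identical copies also limit where reads can be placed. As a measure, the share of 50-base words within 150 bp of each start that occur once in the genome was computed. Of 44 genes with 75% or less, 8 had a peak (18.2%, 9.51 to 32.0). The shares were 46.5% of 387 genes from there to 90%, 46.6% of 116 genes up to 99% and 29.2% of 65 genes above 99%. Genes that share their sequence had a peak in 44.3% of 469 cases and genes of unique sequence in 37.1% of 143 (difference 7.29, -2.00 to 16.03). In the conservative list that difference was 13.7 (4.57 to 22.1). Of the low-share families printed above, the phenylalanine family had a mean of 89% such words at copies with a peak and 76.8% at the others. In the serine family the means were 86.2% and 77.6%, and in the glutamine family 89.25% and 89%. In the 3 high-share families all means lay from 85.1% to 89.6%. The part that read placement has in these shares was not tested.

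GC content differed between genes with and without a peak in the bases upstream, and hardly within the gene. In the 100 bases upstream, GC content was 43.4% ± 7.60 at genes with a peak (SD, n = 261) and 39.9% ± 8.23 at genes with none (SD, n = 351). Inside the gene it was 58.2% and 58.4%. Split by upstream GC, with uneven groups because of ties, 68 of 228 genes at 38% or less had a peak (29.8%, 24.3 to 36.1). So did 80 of 181 at 39 to 45% (44.2%) and 113 of 203 at 46% or more (55.7%, 48.8 to 62.3). The difference, highest minus lowest group, was 25.8 percentage points (16.6 to 34.5), and it was 18.8 in replicate 1's list and 15.03 in replicate 2's. On X the highest and lowest groups had 64.6% and 29.9%, on autosomes 51.4% and 29.7%.

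Within identical families the same lean appeared. In 35 of the 45 mixed families the copies with a peak had the higher mean upstream GC, in 9 the lower. The median difference, copies with a peak minus copies with none, was 3 percentage points (quartiles 0.667 and 7.43). Among the 32 families of 5 or more copies, those with a peak were the higher in 24. GC content also differed outside tRNA genes. In the 310 bases around the summit it averaged 43.0% ± 4.29 at tRNA gene peaks (SD, n = 247). At regions below the reproducibility limit within 300 bp of a tRNA gene start it averaged 41.2% ± 4.78 (SD, n = 307). At other peaks it averaged 43.7%, and at other regions below the limit 39.4%. The part of GC content in how libraries recover DNA was not tested.

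**Figure D5:**
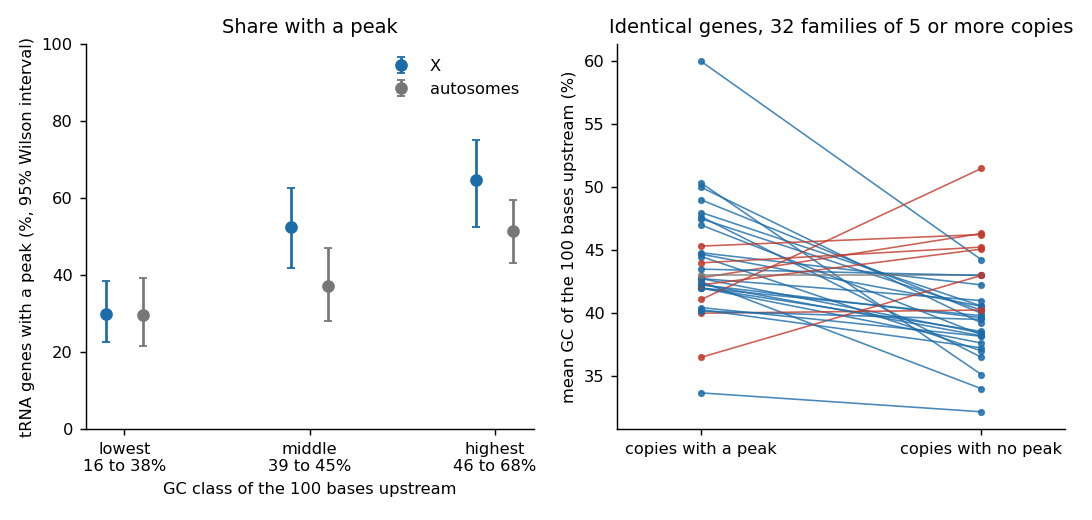
Left, share of tRNA genes with a peak by GC content of the 100 bases upstream, X in blue and autosomes in grey, with 95% Wilson intervals; both run upward, on X 29.9%, 52.4% and 64.6%. Right, mean upstream GC of copies with a peak and copies with no peak in each of the 32 identical-sequence families of 5 or more copies (1 line each; blue where copies with a peak are higher, as in 24 families, red where lower, grey where equal).

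Shares in introns of protein-coding genes and between genes were close, and the difference was larger with other host genes counted. Of 283 tRNA genes in introns of protein-coding genes 122 had a peak (43.1%), and of 319 intergenic ones 135 (42.3%), a difference of 0.790 percentage points (-7.07 to 8.66). With host genes of any biotype other than tRNA counted, the difference was 7.53 (-1.54 to 16.1). Of 10 that overlap exons 4 had a peak. Intronic tRNA genes on the opposite strand to the host had a peak in 58 of 122 cases (47.5%, 38.9 to 56.3) and those on the same strand in 64 of 160 (40%, 32.7 to 47.7). Genes within 1000 bp of a coding start had a peak in 47.6% of 185 cases and genes over 3000 bp away in 38.1% of 181, with overlapping intervals (40.5 to 54.7 and 31.4 to 45.4). From the side of the peaks, 48 of 247 at tRNA genes (19.4%) lay in a coding promoter, from 1000 bp upstream to 200 bp downstream of a coding start. Of the other nuclear peaks 544 of 1290 did (42.2%).

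Clustered and single tRNA genes had close shares under the 300 bp rule, but clustered genes had the lower share when only summits within 100 bp counted. Of 230 genes with another start within 1000 bp 96 had a peak (41.7%), and of 382 single genes 165 (43.2%), a difference of -1.45 (-9.42 to 6.64). Counting only summits within 100 bp of a start it was -10.4 (-17.97 to -2.48). With 1 other start nearby the share was 47.9% of 165 genes, with 2 it was 29.5% of 44, and with 3 or more 4 of 21 genes (19.05%, 7.67 to 40). The order differed in replicate 1's own list, which held 6 of those 21 genes (28.6%), while replicate 2's held 4. Of 77 pairs both genes had a peak in 28, 1 gene in 18 and neither in 31. Some peaks lay near both members of a pair: 29 lay within 300 bp of 2 starts. Of these, 17 were at genes facing away from each other (10 with identical sequences), 8 at genes in the same direction and 4 at genes facing each other. The pairs at T23F1 and F42A10 are counted again through peaks of signal 26.4 and 3.56. Orientations of all tRNA gene pairs this close were not counted, so no preference can be read from these numbers.

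The 4 largest clusters, all on X, held few peaks. None of the 6 genes F22F1.t2 to F22F1.t7 (Ser, Asp, Ser, Asp, Met and Ile) had one, although 5 had a ranked region, of signals 50.1 to 63.3. None of the 6 histidine genes F28H6.t2 to F28H6.t7 did, in an array where the median share of 50-base words that occur once was 20.7%. None of the 5 genes K01A12.t1 to K01A12.t5 did. In the glutamine cluster H08J11.t1 to H08J11.t5, in ajm-1, a peak of signal 130.03 lay within 300 bp of the starts of H08J11.t2 and H08J11.t3. Replicate 1's own list held all 5 genes of it, and replicate 2's held 2. A smaller array, singled out after its values were seen, differed: all 4 glycine genes C12C8.t2 to C12C8.t5 on I had a peak. They share 2 peaks, with summits in C12C8.t2 (57.0) and C12C8.t4 (93.3), while C12C8.t5 and C12C8.t3 count through summits 149 and 166 bp upstream of their starts.

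RefSeq annotates 209 tRNA pseudogenes, degenerate copies that are no members. Of these 7 had a peak (3.35%, 1.63 to 6.75), against 42.6% of tRNA genes. The share of all other nuclear genes, 2.12%, lies within the interval of the pseudogenes. The strongest were at D1046.t1 (166.2) and C52E12.t1 (165.8). A ranked region of any strength lay at 125 of the 209 (59.8%), against 86.8% of tRNA genes and 34.3% of other nuclear genes.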

How the data were processed

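The study measured chromatin bound by GFP-tagged EGL-44 by ChIP-seq in 2 replicates of 1 group, with chromatin in a size range of 200 to 800 per the labels. The authors deposited region lists, ranked and limited by reproducibility, on assembly ce11. Each region carries a signal value and a summit offset as the authors deposited them, and the ranked lists also a deposited −log10 value of the irreproducible discovery rate (IDR), which the limited lists hold to 0.01. What aligned the reads and called the regions, and how signal was scaled, is not given in the sources used here. No read counts were used, so depth is unknown and no interval rests on it. The 8 unnamed input columns of the ranked lists were not used.

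tRNA genes are those of Ensembl release 115 (WBcel235); names, isotypes (607 of 612) and pseudogenes are RefSeq's. The summit of a peak was placed on the gene's strand, from the nearest start. Offsets of ranked regions at genes with no peak are from each gene's own start. Clusters are starts within 1000 bp, identical copies have the same annotated gene sequence, and introns are those of protein-coding genes. For a peak, a replicate's signal is that of its strongest overlapping ranked region. For the 13 peaks of signal below 30 this may be a neighbour's. For a gene, it is that of the strongest ranked region with a summit within 300 bp of the start. Whether a replicate's own list held a peak or a gene followed the same 2 rules. Shares carry Wilson intervals and differences Newcombe intervals, at 95%. No test across genes was run. Named genes are the 20 strongest peaks, the strongest of each chromosome and isotype, the 4 largest clusters, the 3 peaks nearest either side of the 300 bp limit, the 3 weakest and the 5 largest families. Printed families were chosen from the 9 with 10 or more identical copies and none on chromosome I. Members and lists were chosen with earlier results of these data known. Assignment, word counts and intervals were tested on simulated data. Matplotlib 3.10.9, pandas 2.3.3, SciPy 1.17.1, NumPy 2.4.6 and Python 3.11.15 were used.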

Additional observations from a re-analysis of the deposited data

How the results depend on the processing

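Of 65 alternatives to the 9 results, 50 stayed within the interval or limit set for them and 15 did not. Other windows (100 or 500 bp), the conservative list and any overlap of peak and gene left 234 to 270 tRNA genes with a peak. An IDR of 0.001 or less left 142 genes and 134 peaks, since fewer peaks pass it; single replicates left 126 to 144 genes and 113 to 129 peaks. The clustered minus single difference was -10.4 with a window of 100 bp (-17.97 to -2.48); the cause was not tested. The difference in median signal was 14.99 with the 100 bp window, 12.1 in the conservative list, 14.2 with any overlap and 1.79 to 2.81 in single replicates, and reversed to -3.75 at an IDR of 0.001 or less; the cause was not tested. The median summit offset was 15 to 18 bp in single replicates. The difference by upstream GC was 15.03 to 18.8 there; this result and its alternatives, and the X difference among genes with over 75% unique words (4.39), were chosen after seeing the data. The intronic minus intergenic difference was 7.53 with host genes of any biotype (-1.54 to 16.1). The X minus autosome difference was 3.11 to 8.62 over all its alternatives. No paired analysis was possible because there is 1 group.

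The limits are depth, which is unknown, and the single group: no untagged worms were analysed here, and whole worms pool every cell type. Near-identical copies make the assignment of a peak to 1 copy uncertain. The reproducibility limit decides which tRNA genes count as having a peak, and 270 of the 351 others had a ranked region that it left out.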
